A study of Mus musculus with 8 samples.

Results

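Among the genes counted in the 4T1 RNA-seq libraries, 300 of 54532 had a symbol that begins with Rpl or Rps and holds "-ps", the mark of a pseudogene of a ribosomal protein gene. Of these, 189 were named after proteins of the large ribosomal subunit (Rpl) and 111 after proteins of the small subunit (Rps). The annotation listed 287 as processed pseudogenes, 7 as transcribed processed pseudogenes and 6 as protein coding. They were named after 62 genes, of which 60 were found in the annotation by symbol and are called the parent genes here. One of the 60, Rpl7l1, is a relative of a ribosomal protein gene and not a ribosomal protein gene itself.

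4T1 is a mammary carcinoma line from BALB/c mice that is used as a model of triple-negative breast cancer. The cells were stably transfected with an shRNA against MCT-1, the product of the X-linked gene Mcts1, or with a scramble shRNA, were kept under puromycin, and were then exposed for 48 h to an antibody against the IL-6 receptor at 100 ng/ml or to control IgG. Scramble and shMCT-1 cells under either antibody made 4 groups of 2 libraries, written here as scramble + IgG and so on. Each arm was 1 stably transfected line with 1 shRNA sequence, so that the effect of the shRNA and a difference between the lines cannot be told apart. Library totals ran from 19839299 to 33063570 expected counts, with the 4 scramble libraries at 24100084 or more and the 4 shMCT-1 libraries at 23448587 or fewer. Mcts1 was at 15.4, 11.8, 12.8 and 13.5 CPM (counts per 1000000 counts of the library) in the scramble libraries and at 6.32, 6.18, 6.70 and 4.92 CPM in the shMCT-1 libraries. Of the epithelial markers, Krt8, Krt18 and Cdh1 ranged from 245 to 1429 CPM, whereas Epcam was at 3.75 to 4.93 CPM in the scramble and at 49.4 to 54.5 CPM in the shMCT-1 libraries. Of the leukocyte markers, Adgre1 and Cd3e were at 0 in all 8 libraries, Ptprc did not exceed 0.137 CPM, and Cd68 was at 2.66 to 3.34 CPM in the scramble and at 5.42 to 7.51 CPM in the shMCT-1 libraries. The fibroblast marker Pdgfra ranged from 10.9 to 16.7 CPM, and the other 3 fibroblast and 3 endothelial markers did not exceed 1.66 CPM. The part of these marker differences in the comparisons was not tested.

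Ribosomal proteins are the protein building blocks of the ribosome, and their genes are among the most strongly transcribed in growing cells. A processed pseudogene arises when a spliced mRNA is copied into DNA and inserted elsewhere in the genome, usually without introns and without a promoter of its own. Recent copies still resemble the parent mRNA closely, so that a sequencing read from one can align equally well to the other. RSEM, the program the authors used for counting, splits such reads among the matching genes by an estimate, and the resulting counts need not be whole numbers. A count listed for a pseudogene is therefore an assignment of reads, and RNA made from the pseudogene and RNA made from its parent can enter it alike.

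The sequences below show how far the copies resemble their parents. They come from the GENCODE transcripts on GRCm38, each is the stretch of 300 bases that holds the most differences from the parent, and capitals mark the bases that differ. Rps6-ps1, which had the largest positive fold change between shMCT-1 and scramble cells among the tested pseudogenes, is a copy of Rps6, the gene of a phosphorylated protein of the small subunit. The stretch shown lies at chr15:76337760-76338059 on the plus strand, and it holds 11 of the 14 bases by which the 747-base pseudogene differs from the matching part of the Rps6 transcript.

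Rps6-ps1: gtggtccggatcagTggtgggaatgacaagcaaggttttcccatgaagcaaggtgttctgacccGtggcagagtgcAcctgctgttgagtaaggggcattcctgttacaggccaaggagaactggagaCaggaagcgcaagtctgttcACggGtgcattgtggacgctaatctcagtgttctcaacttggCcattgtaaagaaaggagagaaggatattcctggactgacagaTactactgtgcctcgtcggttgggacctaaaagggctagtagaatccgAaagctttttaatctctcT

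Rps6: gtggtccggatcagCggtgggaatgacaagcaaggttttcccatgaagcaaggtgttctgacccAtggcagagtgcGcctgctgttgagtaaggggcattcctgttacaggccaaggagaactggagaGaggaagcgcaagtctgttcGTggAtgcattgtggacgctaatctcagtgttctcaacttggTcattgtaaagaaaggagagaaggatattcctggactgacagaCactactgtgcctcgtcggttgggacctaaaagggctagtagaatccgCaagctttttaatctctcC

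Rpl35a-ps2 on chromosome 1 stands for 4 pseudogenes of Rpl35a, a large-subunit gene, whose 333-base sequences were identical to one another. The 4 copies differ from the parent transcript at 1 base, which lies in the stretch shown (chr1:181242021-181242320, minus strand).

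Rpl35a-ps2: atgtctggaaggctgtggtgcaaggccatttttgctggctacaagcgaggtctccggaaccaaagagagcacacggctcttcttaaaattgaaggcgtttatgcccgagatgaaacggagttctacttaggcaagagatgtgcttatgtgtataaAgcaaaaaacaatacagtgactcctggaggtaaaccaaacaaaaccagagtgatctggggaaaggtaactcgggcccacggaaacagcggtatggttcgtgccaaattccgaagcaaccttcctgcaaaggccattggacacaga

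Rpl35a: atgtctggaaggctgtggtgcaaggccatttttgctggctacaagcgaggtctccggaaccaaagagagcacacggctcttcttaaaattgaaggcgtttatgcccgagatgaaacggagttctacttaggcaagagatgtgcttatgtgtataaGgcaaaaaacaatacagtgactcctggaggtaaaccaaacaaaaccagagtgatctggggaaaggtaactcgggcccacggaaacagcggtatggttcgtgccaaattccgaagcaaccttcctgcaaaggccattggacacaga

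Rpl31-ps9 and Rps24-ps3, chosen with earlier results of these data known, are shown as further copies that differ from their parents at few bases. Rpl31-ps9 (chr1:129801402-129801701, minus strand) differs from Rpl31 at 2 of 378 bases, both in the stretch shown, and Rps24-ps3 (chrX:79195127-79195426, plus strand) differs from Rps24 at 4 of 402 bases.

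Rpl31-ps9: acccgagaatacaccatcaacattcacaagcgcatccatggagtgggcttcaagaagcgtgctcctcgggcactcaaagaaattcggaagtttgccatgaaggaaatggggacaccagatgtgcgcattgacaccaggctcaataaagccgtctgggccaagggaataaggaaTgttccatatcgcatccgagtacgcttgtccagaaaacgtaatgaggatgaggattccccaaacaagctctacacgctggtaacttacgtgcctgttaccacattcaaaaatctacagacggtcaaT

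Rps24-ps3: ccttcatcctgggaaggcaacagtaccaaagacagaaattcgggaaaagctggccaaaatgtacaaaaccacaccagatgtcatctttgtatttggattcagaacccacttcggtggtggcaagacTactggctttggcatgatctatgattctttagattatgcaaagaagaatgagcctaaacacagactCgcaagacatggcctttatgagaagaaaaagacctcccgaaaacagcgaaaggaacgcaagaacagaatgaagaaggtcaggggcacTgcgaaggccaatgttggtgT

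Most of the pseudogenes had few or no counts. The mean over the 8 libraries reached 1 CPM for 62 of the 300 (20.7%), against 22.0% of all genes and 411 of the 9221 other processed pseudogenes (4.46%). The 62 include 4 annotated as protein coding and 3 as transcribed, kinds that the 9221 do not hold. Of the 62, 4 reached 100 CPM, another 25 lay between 10 and 100 CPM and 33 between 1 and 10 CPM. A further 77 pseudogenes had no count in any library, 103 had counts in some libraries only and 120 in all 8. At least 1 CPM was seen in at least 1 library for 73 pseudogenes and in all 8 libraries for 46. The 62 comprised 34 of the 189 Rpl pseudogenes and 28 of the 111 Rps pseudogenes. The 2 with the lowest means above the mark were Rpl3-ps2 (1.17 CPM) and Rps12-ps4 (1.04 CPM), and the 2 just under it were Rpl18-ps1 (0.970 CPM) and Rps2-ps11 (0.951 CPM). These 4 lay within the spread of single libraries: Rps12-ps4 ranged from 0.564 to 2.73 CPM and Rps2-ps11 from 0.731 to 1.21 CPM.

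**Figure D1:**
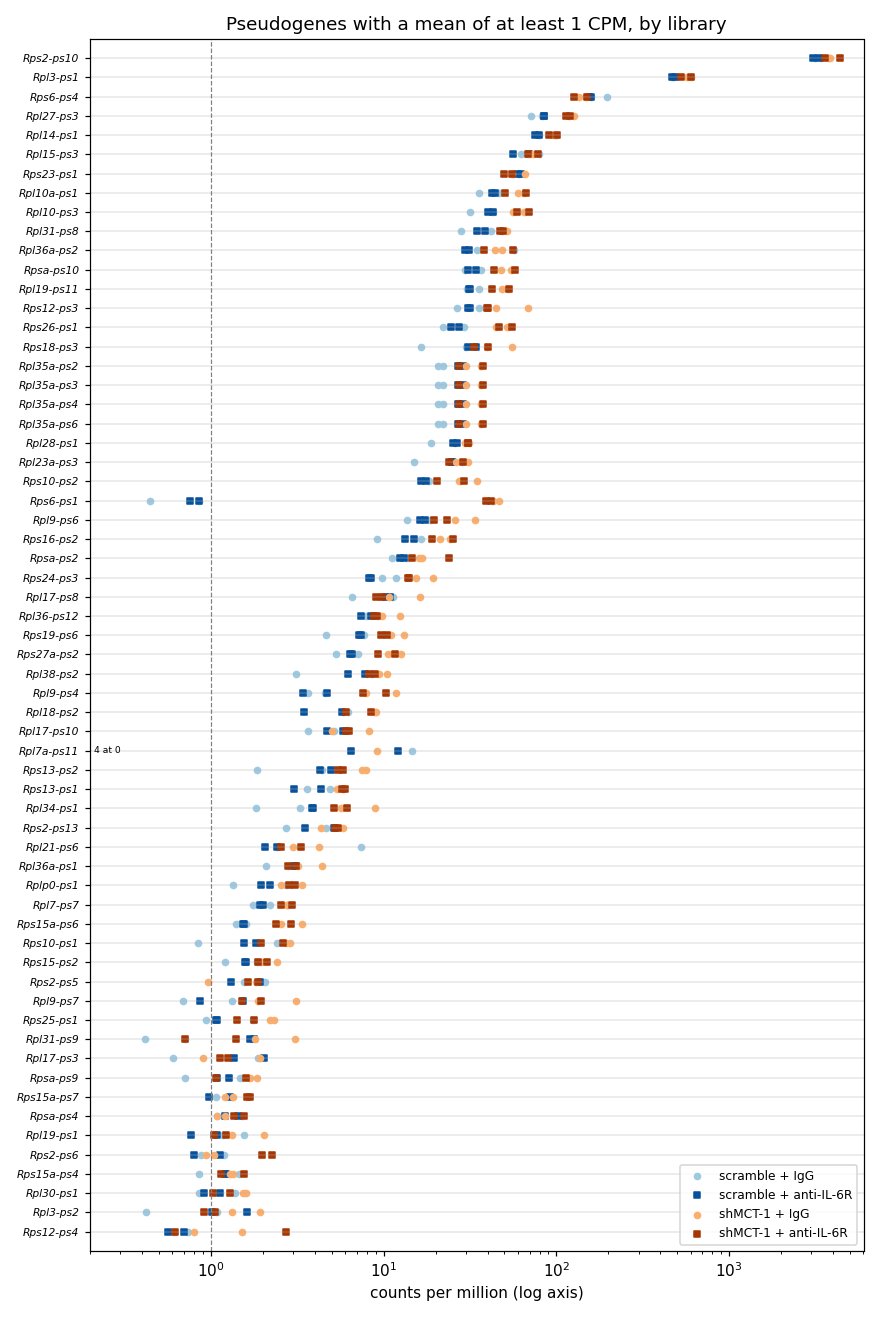
The 62 pseudogenes with a mean of at least 1 CPM, ordered by that mean. Each point is 1 library, the horizontal axis gives CPM on a log scale, circles are IgG, squares are anti-IL-6R, blue is scramble and orange or brown is shMCT-1, and the dashed line is 1 CPM; Rps2-ps10 stands at 3076 CPM or more in every library, and Rps6-ps1 lies under 1 CPM in the 4 scramble libraries and at 39.0 CPM or more in the 4 shMCT-1 libraries.

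The pseudogenes that reached 1 CPM all shared sequence with another gene. Each pseudogene transcript was cut into all its overlapping windows of 100 bases, the read length, and each window was looked up in the transcripts of all other genes on the same strand. Reads came in pairs, and this lookup did not take the other read of a pair into account. For 121 pseudogenes no window was found elsewhere, and none of these reached a mean of 1 CPM, the highest being at 0.725 CPM; 64 of them were at 0 in all libraries. Some windows were shared for 148 pseudogenes, of which 45 (30.4%) reached 1 CPM. All windows were shared for 31, of which 17 (54.8%) reached 1 CPM. The median share of windows found elsewhere was 73.1% for the 62 pseudogenes at or above 1 CPM and 0% for the 238 below it. Over the 300 pseudogenes, which share libraries and in part sequence, the Spearman correlation of this share with the mean level was 0.655, given as a description.

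Identity to the parent followed the same order. The median identity was 99.3% for the 62 pseudogenes at or above 1 CPM and 94.1% for those below. Pseudogene and parent transcript were compared over the length of the shorter one. Of the 13 pseudogenes with no difference from a parent transcript on that measure, 12 reached 1 CPM, and the other one, Rpl10-ps1, had no count in any library. Parent genes had means from 103 to 3725 CPM with a median of 835 CPM.

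Counts of the pseudogenes were mostly not whole numbers. A value more than 0.005 away from a whole number made up 86.7% of the 1357 values above 0 for the pseudogenes, 98.3% for the parent genes, 60.01% for the other processed pseudogenes and 29.0% for all remaining genes. Among the 121 pseudogenes with no shared window the share was 38.1%, against 98.0% for the 31 with all windows shared. Among the 62 at or above 1 CPM it was 98.98%, so that nearly all values described here hold reads that the counting divided among genes.

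**Figure D2:**
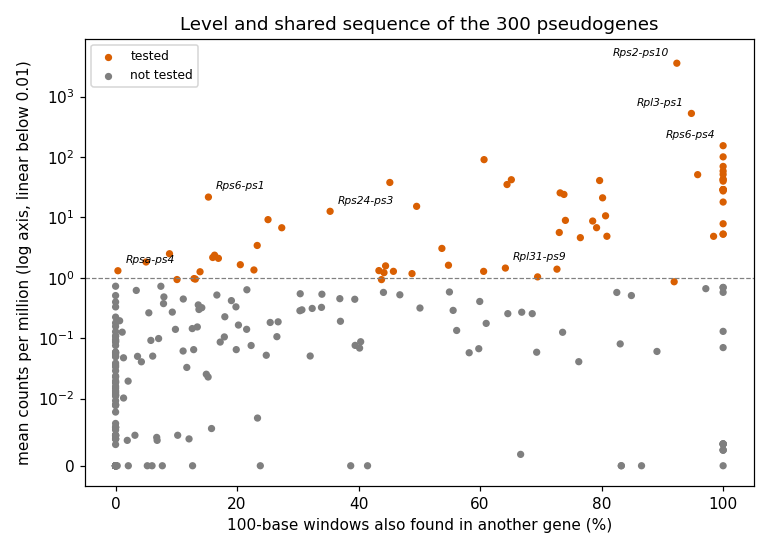
Each point is 1 of the 300 pseudogenes, with the percentage of its 100-base windows that also occur in another gene on the horizontal axis and its mean CPM over 8 libraries on the vertical axis (log scale, linear below 0.01). Orange points passed the filter for testing, and no pseudogene at 0% lies above the dashed line at 1 CPM.

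Rps2-ps10 (chr18:61259008-61259972, minus strand), a 965-base copy of the small-subunit gene Rps2 that is annotated as transcribed, held most of the counts. It stood at 3127, 3396, 3309 and 3076 CPM in the scramble libraries and at 3815, 3772, 4382 and 3596 CPM in the shMCT-1 libraries. All 4 shMCT-1 libraries lay above all 4 scramble libraries, while IgG and anti-IL-6R overlapped within each line. Rps2 itself averaged 1353 CPM, and per kilobase of transcript the pseudogene was at 3688 CPM and Rps2 at 1356 CPM, the only tested pseudogene with a higher level per length than its parent. The pseudogene was 96.2% identical to the parent transcript, and 92.4% of its windows were found among 37 other genes. It took 63.3% to 68.7% of all pseudogene counts in a library.

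The next levels belonged to copies of both subunits. Rpl3-ps1 on the X chromosome, a copy of the gene of a core protein of the large subunit, ranged from 466 to 602 CPM, Rps6-ps4 from 126 to 196 CPM, Rpl27-ps3 from 71.8 to 126 CPM and Rpl14-ps1 from 74.9 to 101 CPM. Means between 42.0 and 69.7 CPM were found for Rpl15-ps3, Rps23-ps1, Rpl10a-ps1, Rpl10-ps3, Rpl31-ps8, Rpl36a-ps2 and Rpsa-ps10. Of these 12 pseudogenes with the highest levels, 7 matched a parent transcript without a difference. The median over all tested pseudogenes was 1.92% of the parent's level per length.

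Taken by family, the pseudogenes held a small part of the counts for most parents. The median over 60 families was 1.184% of the counts of parent and pseudogenes together, 29 families were under 1%, and 6 were over 10%. The share was 72.5% for Rps2, 52.9% for Rpl35a and 33.6% for Rpl3. The largest families by number were those of Rpl31 and Rps12 with 24 pseudogenes each, of which 2 and 2 reached 1 CPM.

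Pseudogenes with identical sequences received identical counts. There were 4 sets of identical sequences with 14 pseudogenes in all, and in each set the counts were equal in all 8 libraries. Rpl35a-ps2, -ps3, -ps4 and -ps6 each had 20.6, 22.2, 26.9 and 28.7 CPM in the scramble libraries and 30.2, 36.5, 37.9 and 27.5 CPM in the shMCT-1 libraries, and Rpl35a had a mean of 103 CPM. The 4 copies are therefore 1 measurement listed 4 times.

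Summed over the 300 pseudogenes, the level was 4853 CPM ± 125 (SD, n = 2) under IgG and 4791 ± 206 (n = 2) under anti-IL-6R in scramble cells, and 5891 ± 92.5 (n = 2) and 5962 ± 758 (n = 2) in shMCT-1 cells. Every shMCT-1 library (5426 to 6498 CPM) lay above every scramble library (4645 to 4941 CPM). Without Rps2-ps10 the ranges were 1830 to 2185 CPM in the shMCT-1 libraries and 1545 to 1637 CPM in the scramble libraries. The parent genes moved alongside, with 38750 to 46870 CPM in the scramble and 53030 to 63990 CPM in the shMCT-1 libraries. Scramble + IgG replicate 2 had the lowest sum over the parents (38750 CPM) and the highest share of mitochondrially encoded counts (2.52%, against 1.97% to 2.27% in the other scramble and 0.840% to 1.53% in the shMCT-1 libraries), and the part of either in the comparisons was not tested. The pseudogenes' share of the counts of parents and pseudogenes together overlapped between the arms, at 9.23% to 11.3% and at 8.52% to 9.60%. Olfactory and vomeronasal receptor genes, which cells of this kind should not use, summed to 31.1 to 39.6 CPM in the scramble and 20.96 to 24.2 CPM in the shMCT-1 libraries over 1731 genes. In such bulk libraries a change in the number of cells that hold an RNA and a change in the amount per cell cannot be told apart.

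To ask which pseudogenes differed between shMCT-1 and scramble cells, edgeR's quasi-likelihood test was run on all 12704 genes that exceeded 1 CPM in at least 2 libraries, with Benjamini-Hochberg adjustment and a threshold of 0.05. Of the 300 pseudogenes, 67 passed this filter. Of these, 46 exceeded 1 CPM in all 8 libraries and 4 exceeded it in shMCT-1 libraries only, a way of passing that favours a difference.

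In shMCT-1 + IgG vs. scramble + IgG, 31 of the 67 tested pseudogenes were called and all 31 were higher in shMCT-1 cells. Over all tested genes 54.4% were called, 28.3% higher and 26.2% lower. Without scramble + IgG replicate 2 the count was 27. Under anti-IL-6R, a comparison of the same lines which shares no library with the first comparison but the same estimate of the spread, 22 of the 67 were called, all higher, where 54.3% of all genes were called, 26.9% higher and 27.3% lower. That second count was 11 without scramble + anti-IL-6R replicate 1, 10 without scramble + anti-IL-6R replicate 2 and 10 without shMCT-1 + anti-IL-6R replicate 1. The share of all tested genes called in these reduced fits is not given here. Whether the lower counts are particular to the pseudogenes can therefore not be told. With all libraries, 14 of the 67 pseudogenes were called higher in both comparisons, where 23.6% of all tested genes were. Of the 31 called with IgG, 29 had a positive log2 fold change with anti-IL-6R, as had 99.1% of all genes called higher with IgG. Counting each identical sequence once, 28 and 22 were called.

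The median log2 fold change of the 67 pseudogenes was 0.64 with IgG and 0.38 with anti-IL-6R, against 0.01 and 0.01 over all tested genes. For the 60 parent genes it was 0.64 and 0.41, with 51 and 37 called, all higher. The 489 tested other processed pseudogenes had medians of 0.19 and 0.17, with 115 called higher and 46 lower with IgG. The medians of the pseudogenes and of their parents thus lay close together. The difference between a pseudogene and its parent, which was not tested, was within 0.5 on the log2 scale for 55 of 67 pairs with IgG and for 58 of 67 pairs with anti-IL-6R. The parents themselves spanned only -0.13 to 1.20 and -0.19 to 1.11. Across the 67 pairs the Spearman correlation of pseudogene and parent fold changes was 0.489 with IgG and 0.212 with anti-IL-6R, given as a description. Of the 31 pseudogenes called with IgG, 30 had a parent that was called higher too, and of the 22 called with anti-IL-6R, 16 did. Most parents were called in any case, as 85% of the 60 were called higher with IgG and 61.7% with anti-IL-6R.

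Over both treatments, in a model with 1 term for the shRNA and 1 for the antibody, 38 of the 67 were called, all higher, where 69.0% of all genes were called, 35.0% higher and 34.0% lower. All 4 shMCT-1 libraries lay above all 4 scramble libraries for 25 of the 67 and below them for 1, against 29.9% and 34.2% of all tested genes. By subunit, 20 of the 37 tested Rpl pseudogenes were called with IgG and 10 with anti-IL-6R, and for the 30 tested Rps pseudogenes the numbers were 11 and 12. Among the 25 tested pseudogenes with at most 50% of their windows shared, 6 were called in each of these comparisons, and among the 17 with all windows shared, 11 and 5 were. Over all tested genes 54.4% and 54.3% were called. The 4 identical Rpl35a copies count as 4 among the 37 and among the 17, each called with IgG and not with anti-IL-6R.

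**Figure D3:**
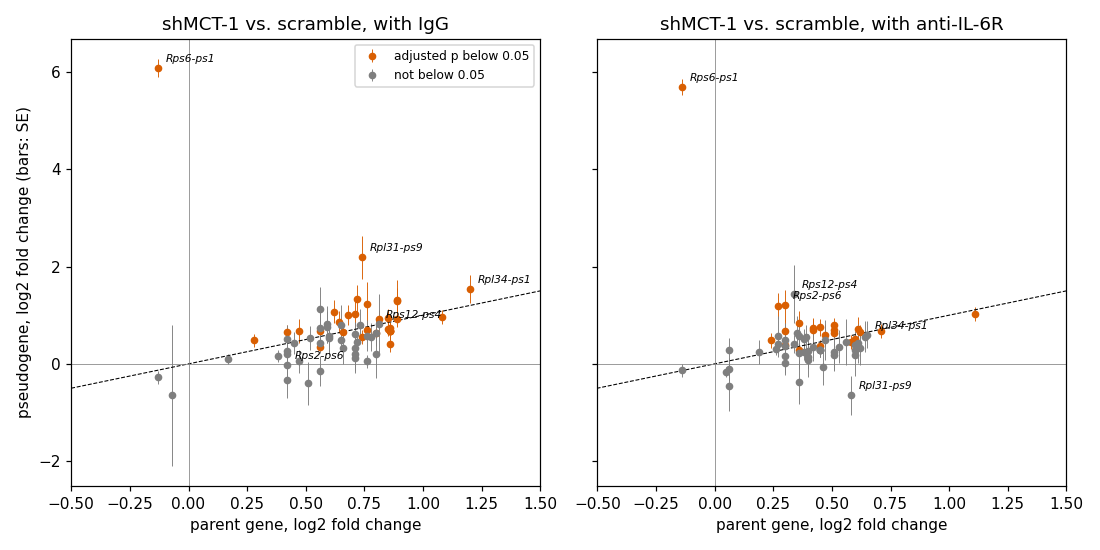
Log2 fold changes of the tested pseudogenes (vertical axis, bars are standard errors) against those of their parent genes (horizontal axis), shMCT-1 vs. scramble, with IgG on the left and with anti-IL-6R on the right. Orange points were called, the dashed line marks equal change, Rps6-ps1 stands apart at 6.08 and 5.69 while its parent lies at -0.13 and -0.14, and Rpl7a-ps11, at 0 in both shMCT-1 + anti-IL-6R libraries, is left out of the right panel.

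Rps6-ps1 (chr15:76337616-76338362, plus strand) was the exception among the pseudogenes. In scramble cells it stood at 0.858 and 0.443 CPM under IgG and at 0.854 and 0.756 CPM under anti-IL-6R. In shMCT-1 cells it stood at 43.0 and 46.7 CPM under IgG and at 39.0 and 41.7 CPM under anti-IL-6R. The lowest shMCT-1 library was 45.5 times the highest scramble library, and the ratio of the means was 58.5. The log2 fold change was 6.08 ± 0.18 (SE; edgeR adjusted p = 1.08e-07) with IgG and 5.69 ± 0.17 (edgeR adjusted p = 7.53e-08) with anti-IL-6R, which placed it 57th and 65th among the 12704 genes. Leaving out any library gave values between 5.58 and 6.62, and it was called each time. It was 1 of the 4 pseudogenes that exceeded 1 CPM in shMCT-1 libraries only, and the only 1 of those 4 that was called with IgG or with anti-IL-6R.

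The parent and the closest copy did not follow it. Rps6 ranged from 1633 to 1708 CPM in the scramble libraries and from 1358 to 1561 CPM in the shMCT-1 libraries, with log2 fold changes of -0.13 ± 0.09 and -0.14 ± 0.09 that did not pass the test (edgeR adjusted p = 0.260 and 0.240). Rps6-ps4 (chr2:75191073-75191822, minus strand), which matches the Rps6 transcript without a difference and shares all its windows, had log2 fold changes of -0.28 ± 0.13 and -0.13 ± 0.13, neither of them called. Rps6-ps1 differs from Rps6 at 14 bases, and 549 of its 648 windows were found in no other gene. Its counts were not whole in all 8 libraries, so part of them was shared with other genes. Over the 4 shMCT-1 libraries its mean level was 57.0 CPM per kilobase, against 1688 CPM per kilobase for Rps6.

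The nearest tested protein-coding genes on either side of Rps6-ps1 had smaller fold changes, 7 of the 8 values called. Gpaa1, a subunit of the complex that attaches GPI anchors, ends 2709 bases before it and had log2 fold changes of 0.67 ± 0.16 and 0.57 ± 0.16 (edgeR adjusted p = 0.00563 and 0.0130). Cyc1, the cytochrome c1 gene of the respiratory chain, begins 5161 bases after it and had 0.73 ± 0.15 and 0.49 ± 0.15 (edgeR adjusted p = 0.00280 and 0.0189). The next such genes on either side were Exosc4, of the RNA exosome, and Sharpin, of a ubiquitin ligase complex. Exosc4 and Sharpin had 0.47 and 0.47 with IgG (edgeR adjusted p = 0.0101 and 0.00643). With anti-IL-6R they had 0.32 and 0.45, where Exosc4 was not called (edgeR adjusted p = 0.0501 and 0.00789). The median over the 516 tested genes of chromosome 15 was 0.18 and 0.17. No other annotated gene overlapped Rps6-ps1, and the part of the neighbours' change in its counts was not tested.

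**Figure D4:**
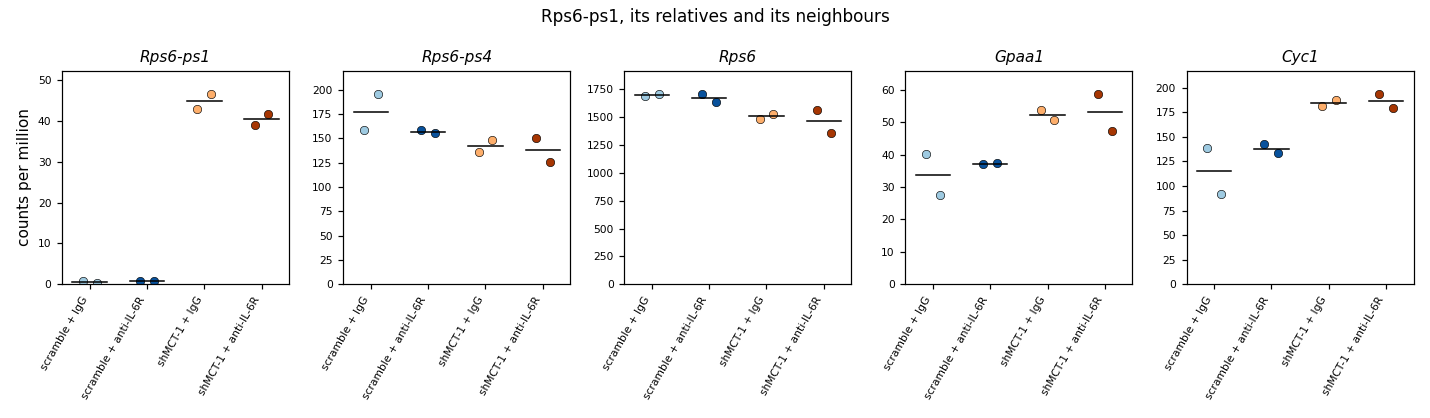
CPM in each library (points) with group means (bars) for Rps6-ps1, its relatives Rps6-ps4 and Rps6, and its neighbours Gpaa1 and Cyc1, each on its own axis from 0. Rps6-ps1 is at 0.858 CPM or less in the scramble libraries and at 39.0 CPM or more in the shMCT-1 libraries, whereas Rps6 lies between 1358 and 1708 CPM throughout.

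Among the other small-subunit copies, Rps26-ps1 (chr8:107439131-107439579, minus strand) rose about as much as its parent. It was at 29.2, 22.2, 27.3 and 24.7 CPM in the scramble libraries and at 52.0, 44.9, 55.5 and 46.7 CPM in the shMCT-1 libraries, without overlap. Its log2 fold changes of 0.96 ± 0.14 and 1.03 ± 0.14 (edgeR adjusted p = 0.000435 and 0.000276) stood beside 1.08 and 1.11 for Rps26. Rps24-ps3 (chrX:79195047-79195448, plus strand) was at 11.8, 9.83, 8.23 and 8.42 CPM in the scramble and 15.3, 19.3, 13.9 and 13.97 CPM in the shMCT-1 libraries. Its log2 fold changes were 0.72 ± 0.14 and 0.80 ± 0.14 (edgeR adjusted p = 0.00173 and 0.00114), and those of Rps24 were 0.85 and 0.51. Calls of Rps26-ps1 and Rps24-ps3 were kept without any one library.

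Rps13-ps2, Rps2-ps6 and Rps12-ps4 were called in fewer comparisons. Rps13-ps2, which matches Rps13 without a difference, had a log2 fold change of 1.33 ± 0.30 with IgG (edgeR adjusted p = 0.00428) and 0.35 ± 0.29 with anti-IL-6R, which was not called. Rps2-ps6 was at 1.98 and 2.26 CPM in shMCT-1 + anti-IL-6R and at 0.797 to 1.19 CPM in the other 6 libraries. It was called with anti-IL-6R (1.20 ± 0.31, edgeR adjusted p = 0.00908; 0.98 with adjusted p = 0.0844 without scramble + anti-IL-6R replicate 1), whereas with IgG its value was -0.02 ± 0.34. Rps12-ps4 passed the filter through 2 shMCT-1 libraries alone (1.52 and 2.73 CPM, against at most 0.796 CPM in the other 6), which favours a difference. It was called over both treatments only (1.14 ± 0.43, edgeR adjusted p = 0.0348), a call lost without scramble + IgG replicate 1 or either scramble + anti-IL-6R library, and its 2 libraries of shMCT-1 + anti-IL-6R were at 2.73 and 0.623 CPM.

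Among the large-subunit copies, Rpl9-ps4 was called with IgG and with anti-IL-6R, and Rpl34-ps1 with IgG. Rpl9-ps4 (chr13:72454762-72455340, minus strand), 1 base from its parent, was at 4.56, 3.63, 4.72 and 3.42 CPM in the scramble and 7.89, 11.8, 10.3 and 7.60 CPM in the shMCT-1 libraries. It had log2 fold changes of 1.30 ± 0.26 and 1.19 ± 0.26 (edgeR adjusted p = 0.00216 and 0.00334), both called without any one library, where Rpl9 had 0.89 and 0.27. Rpl34-ps1 (chr6:71124610-71124963, plus strand) was at 3.30, 1.84, 3.86 and 3.92 CPM in the scramble and 5.69, 8.87, 5.19 and 6.16 CPM in the shMCT-1 libraries. Its value was 1.54 ± 0.29 with IgG (edgeR adjusted p = 0.00166) and 0.60 ± 0.28 with anti-IL-6R, where it was not called (edgeR adjusted p = 0.0958).

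Of the 12 pseudogenes with the highest levels, 5 were called both with IgG and with anti-IL-6R among the large-subunit copies, namely Rpl3-ps1, Rpl27-ps3, Rpl10a-ps1, Rpl10-ps3 and Rpl31-ps8, and 1 among the small-subunit copies, Rpsa-ps10, whose parent encodes a small-subunit protein also described as a laminin receptor. Rpl27-ps3 had 0.70 ± 0.09 and 0.52 ± 0.09, and Rpl10-ps3 had 0.73 ± 0.14 and 0.68 ± 0.14, all 4 values called without any one library. Rps2-ps10 was not called with IgG (0.26 ± 0.11, edgeR adjusted p = 0.0741) and was called with anti-IL-6R (0.38 ± 0.11, edgeR adjusted p = 0.0170), a call lost without scramble + anti-IL-6R replicate 1, scramble + anti-IL-6R replicate 2 or shMCT-1 + anti-IL-6R replicate 1. The anti-IL-6R calls of Rpl3-ps1, Rpl14-ps1, Rpl10a-ps1, Rpl31-ps8 and Rpl36a-ps2 were lost without each of the same 3 libraries, and that of Rpl31-ps8 also without shMCT-1 + anti-IL-6R replicate 2. With IgG the call of Rpl3-ps1 was lost without shMCT-1 + IgG replicate 2 and that of Rpl31-ps8 without shMCT-1 + IgG replicate 1. Rpl15-ps3 and Rps23-ps1, which match their parents without a difference, were called in neither comparison, with values of 0.05 and 0.29 for the first and 0.10 and -0.17 for the second.

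The 3 pseudogenes with the fewest shared windows among those at or above 1 CPM were not called with IgG or with anti-IL-6R, and 1 of them, Rplp0-ps1, was called over both treatments. Rpsa-ps4 (chr11:33038816-33039703, minus strand), with 3 of 789 windows found elsewhere, ranged from 1.08 to 1.57 CPM and had log2 fold changes of -0.14 ± 0.31 and 0.18 ± 0.30, where its parent Rpsa had 0.56 and 0.51. Rps15-ps2 had 0.55 ± 0.29 and 0.38 ± 0.29, and Rplp0-ps1, a copy of the gene of a stalk protein of the large subunit, had 0.58 ± 0.32 and 0.56 ± 0.32. Over both treatments Rplp0-ps1 had 0.57 ± 0.22 (edgeR adjusted p = 0.0375), a call lost without scramble + IgG replicate 2, either scramble + anti-IL-6R library, shMCT-1 + IgG replicate 1 or shMCT-1 + anti-IL-6R replicate 1, with values of 0.40 to 0.78 over the libraries left out. Rps15-ps2 had 0.47 ± 0.20 (edgeR adjusted p = 0.0565) and Rpsa-ps4 0.02 ± 0.22 there. Within a treatment, their standard errors of 0.29 to 0.32 limit the size of change that could be detected.

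Some pseudogenes lie inside other genes, whose RNA before splicing can contain them. Of the 67 tested, 26 overlapped another annotated gene, and 8 lay in an intron of a gene on the same strand, in 5 cases a gene that was itself tested. Rps19-ps6 had a log2 fold change of 1.00 with IgG where its host Tecpr2 had -0.56 ± 0.11, and Rps15a-ps6 had 1.03 where its host Nudcd3 had 0.08 ± 0.08. Rpl36a-ps2 had 0.05 ± 0.23 with IgG where Ddah1 had 0.74 ± 0.09, and Rpl36-ps12 had 0.41 where Sumf1 had 0.53 ± 0.12. With anti-IL-6R, Rpl36a-ps2 had 0.67 where Ddah1 had 0.88 ± 0.09, and Rpl36-ps12 had 0.24 where Sumf1 had 0.60 ± 0.12. Rps19-ps6 had 0.51 there where Tecpr2 had -0.56 ± 0.11, and Rps15a-ps6 had 0.83 where Nudcd3 had 0.06 ± 0.08. Rps19-ps6 and its host thus had opposite signs with IgG and with anti-IL-6R.

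Exposure to anti-IL-6R gave no call in edgeR's quasi-likelihood test with the filter on low values, and a few calls in other tests. Comparing anti-IL-6R with IgG within scramble cells, within shMCT-1 cells, and between the lines as the interaction of shRNA and antibody, the quasi-likelihood test called 0 of the 67 pseudogenes and 0% of all 12704 genes. At an unadjusted p under 0.05 in that test there were 8, 5 and 6 of the 67, against 166, 505 and 315 of all 12704 genes. The 8 include the 4 identical Rpl35a copies. DESeq2 called 0, 1 and 0, and edgeR's exact test called 1 in scramble cells and 0 in shMCT-1 cells. Without the filter on low values the quasi-likelihood test called 5, 2 and 3 pseudogenes. The numbers called over all genes in these other tests are not given here. Whether the pseudogenes differ from other genes there can therefore not be told.

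Rpl31-ps9 had the lowest unadjusted p for the interaction among the pseudogenes. In scramble cells it was at 0.416 and 0.709 CPM under IgG and at 1.68 and 1.79 CPM under anti-IL-6R. In shMCT-1 cells it was at 3.06 and 1.81 CPM under IgG and at 0.714 and 1.40 CPM under anti-IL-6R. Its log2 fold change for shMCT-1 vs. scramble was 2.19 ± 0.44 with IgG (edgeR adjusted p = 0.00237) and -0.65 ± 0.41 with anti-IL-6R, which was not called, and the interaction of -2.84 ± 0.61 did not pass either (unadjusted p = 0.000905, edgeR adjusted p = 1). Rpl31 itself had 0.74 and 0.58, both called, and Rpl31-ps8, which matches Rpl31 without a difference, had 0.55 ± 0.15 and 0.45 ± 0.15. The uneven pattern was therefore seen in the copy with 2 differing bases and at a level near 1 CPM.

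2 further pseudogenes, chosen after their values were seen, alternated between presence and absence. Rpl7a-ps11, a copy of the large-subunit gene Rpl7a with all windows shared, was at 14.6 and 0 CPM in scramble cells under IgG and at 6.44 and 12.1 CPM under anti-IL-6R. In shMCT-1 cells it was at 9.17 and 0 CPM under IgG and at 0 in both libraries under anti-IL-6R. Rpl7a stayed between 1291 and 1554 CPM in the same libraries. Rpl30-ps9 was at 5.29 CPM in scramble + IgG replicate 1 and at 0 in the other 7 libraries. Rpl30-ps9 did not pass the filter. Rpl7a-ps11 was called in none of the comparisons of the main quasi-likelihood fit. Under anti-IL-6R, where both shMCT-1 libraries were at 0, its log2 fold change for shMCT-1 vs. scramble was -10.86 ± 4.1. There its edgeR adjusted p lay just over the threshold (edgeR unadjusted p = 0.0272). DESeq2, edgeR's exact test and 3 other alternatives (RLE size factors, no filter, the replicate block) called it lower.

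**Figure D5:**
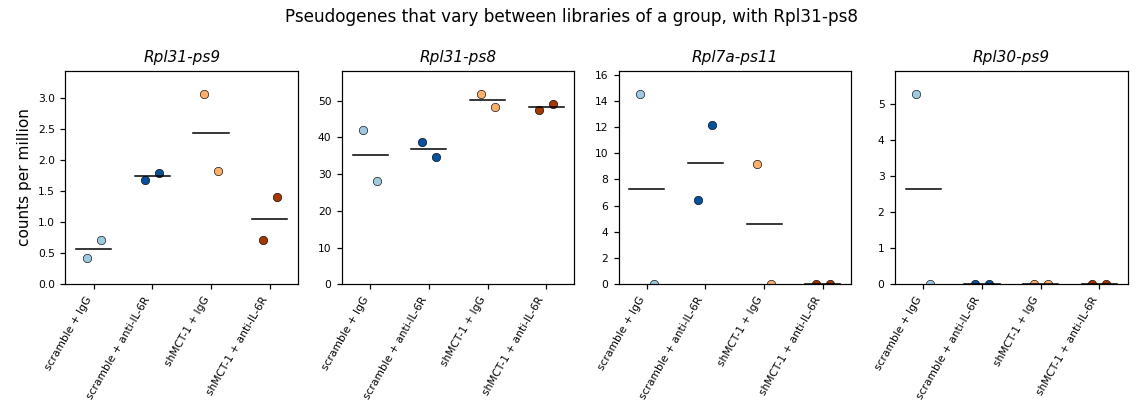
CPM in each library (points) with group means (bars) for Rpl31-ps9, Rpl31-ps8, Rpl7a-ps11 and Rpl30-ps9, each on its own axis from 0. Rpl31-ps8 separates the scramble from the shMCT-1 libraries, Rpl7a-ps11 is at 0 in 4 of 8 libraries, and Rpl30-ps9 is above 0 in 1 library.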

How the data were processed

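Poly(A)-selected RNA of 8 cultures was sequenced as paired-end reads of 100 bases. The authors trimmed reads with cutadapt 1.18, aligned them with STAR 2.7.0d to mm10 and deposited expected counts per gene from RSEM, with GENCODE M19 as annotation. RSEM divides reads that match several genes. The strand setting is not given in the sources used here. Gene symbols, coordinates and transcripts came from GENCODE M21 on GRCm38, by Ensembl identifier. CPM were computed on library totals, and each value's precision is limited by 2 libraries per group.

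Counts were rounded and tested with edgeR 4.0.16 in R 4.3.3 (TMM, a minimum of over 1 CPM in 2 or more libraries, quasi-likelihood test, Benjamini-Hochberg adjustment over all tested genes), after the script was tested on simulated data. The 4 groups shared 1 estimate of the spread. SE is the log2 fold change divided by the root of F. Alternatives were DESeq2 1.42.0, edgeR's exact test, RLE size factors, other filters, a replicate block and leaving out each library. Sequences were aligned to the closest parent transcript with edlib 1.3.9.post1, and windows were compared on annotated transcripts only, not on the genome.

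Named were the 12 pseudogenes with the highest means, up to 4 called members in each direction and comparison with means of at least 1 CPM, Rps6-ps1, Rpl31-ps9, Rps24-ps3, the 2 nearest to 1 CPM on each side, the 3 with most and fewest shared windows, and their parents. The members and lists were chosen with earlier results of these data known. The values of 1 pseudogene are not reported here.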

Additional observations from a re-analysis of the deposited data

How the results depend on the processing

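The number of pseudogenes called, shMCT-1 vs. scramble, ranged from 23 to 41 with IgG, from 10 to 27 with anti-IL-6R and from 33 to 41 over both treatments when 1 library was left out, a fit that assumes the lone library of a group to vary like the others. The numbers over all genes in these reduced fits are not given here. The other alternatives kept these 3 counts of pseudogenes within 1.5 times. For anti-IL-6R vs. IgG, testing all genes without a filter called 5 pseudogenes in scramble and 2 in shMCT-1 cells and 3 in the interaction. The exact test called 1 in scramble and DESeq2 called 1 in shMCT-1 cells, Rpl7a-ps11. The causes were not tested, and the numbers called over all genes in these tests are not given here. The mean summed level of 5374 CPM ranged from 5214 to 5478 CPM without single libraries and was 1815 CPM without Rps2-ps10, an alternative chosen after seeing the data like the counting of identical sequences once. The number reaching 1 CPM ranged from 61 to 63 without single libraries. With a tolerance of 0.05 the share of values that were not whole was 74.1%, and with 50-base windows the median share found elsewhere rose from 9.98% to 39.5%. Of 767 refitted values of named pseudogenes and Rpl7a-ps11, 704 kept their direction and their side of the threshold, 30 lost and 24 gained the call, and 9 changed sign when 1 library was left out, none of them called with all libraries: Rps6-ps4 with anti-IL-6R (-0.26 to 0.01 over the libraries left out) and, with IgG, Rpl14-ps1 (-0.02 to 0.35), Rpl15-ps3 (-0.13 to 0.24), Rps23-ps1 (-0.03 to 0.22), Rpl36a-ps2 (-0.28 to 0.46), Rps2-ps6 (-0.21 to 0.21) and Rpsa-ps4 (-0.35 to 0.11). Replicate numbers did not pair the libraries: the correlations of same-numbered deviations between groups ran from -0.0797 to 0.106, 2 of 6 below 0, and the fit with the replicate number as a block called 31, 22 and 40 pseudogenes in the 3 comparisons of shMCT-1 with scramble and 0 in the others. Depth limits pseudogenes near 1 CPM, where 1 CPM is 19.8 to 33.1 counts.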
